A study of Drosophila melanogaster with 6 samples.

Results

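The regulators of egg activation and of the completion of female meiosis described here are 10 genes of Drosophila melanogaster, picked by symbol from the 17457 features of an ovary RNA-seq table. They are the kinase complex genes png, plu and gnu, the activators of the anaphase-promoting complex cort and fzy, the phosphatase twe, the cyclin CycB3, the Polo inhibitor mtrm, and the calcineurin genes sra and CanB2. All 10 were found, and all 10 passed the filter of a mean of at least 1 TPM, the unit of transcript level used here, which is scaled for transcript length and to the same total in every sample. RNA came from ovaries of 3 control samples and 3 samples in which Sam-S, the S-adenosylmethionine synthetase gene, was overexpressed in the germline. Both groups carried the nanos-gal4 driver, which is active in germline cells. In the overexpression group it was combined with a UASp-Sam-S transgene, and in controls with the empty docking site used for that construct. The labels give neither the age of the flies nor how many were dissected per sample. Each batch, numbered 1 to 3 like the replicates, held 1 sample of each group.

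A mature Drosophila oocyte waits in metaphase of the first meiotic division until it passes into the oviduct, where a rise of calcium activates the egg. Calcineurin, a calcium-dependent phosphatase, then lets the anaphase-promoting complex, a ubiquitin ligase, degrade cyclins so that meiosis ends, while the PNG kinase changes which stored mRNAs are translated. The transcripts for these steps are made by the nurse cells and stored, and much of their control acts on translation and protein turnover. The libraries were made from polyA RNA, so the values below are levels of polyadenylated RNA; neither tail length nor protein was measured.

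Sam-S itself separated the groups, at 497, 512 and 483 TPM in control replicates 1, 2 and 3 and 1572, 1443 and 1541 TPM in overexpression replicates 1, 2 and 3. Between 7786 and 7911 features reached 1 TPM in each sample, and sequencing depth is unknown because TPM does not keep it. The germline marker genes summed to between 2156 and 2282 TPM and the follicle cell markers to between 79.4 and 104.8 TPM, so both cell types of the labelled tissue were present. Muscle markers summed to between 125 and 191 TPM, and the markers of fat body and blood cells to at most 0.28 TPM, with Fbp1 listed at 0 in every sample. In bulk tissue, fewer cells of a type and less RNA per cell cannot be told apart.

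None of the 10 genes passed the test for a change with Sam-S overexpression. In limma, fitted over all 7855 features with a mean of at least 1 TPM and adjusted by Benjamini-Hochberg, 0 of 10 had an adjusted p under 0.05, where 22 features, 0.28%, did among all tested. At an unadjusted p under 0.05 there were also 0 of 10, against 6.58% of all tested features. The estimated log2 fold changes on the log2(TPM + 1) scale ran from -0.17 for fzy to 0.05 for plu, with a median of -0.06, beside a median of -0.01 for all tested features. Of the 10 estimates 9 were below 0, as were 56% of those of all tested features. For each of the 10 genes the control and overexpression values overlapped, whereas they did not in 11.9% of tested features. The 95% confidence intervals of the 10 log2 fold changes lay between -0.41 and 0.23, that is between 75.4% and 117% of the control level, so that a change of 1.5 times in either direction lay outside all of them.

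**Figure D1:**
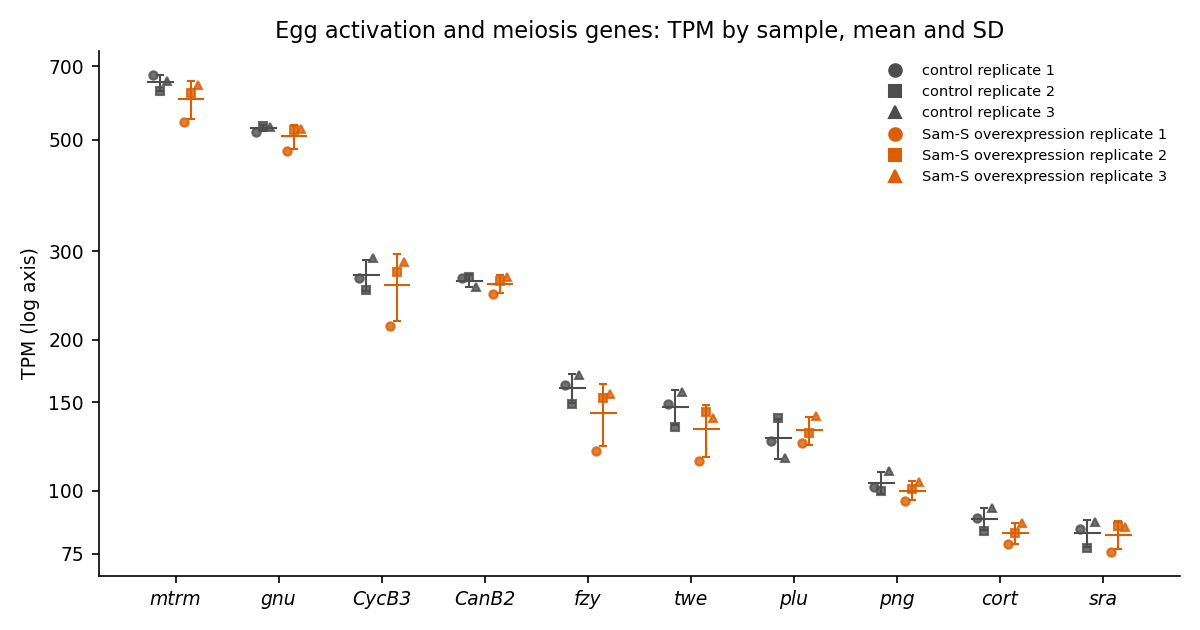
TPM (log axis) of the 10 genes in each of the 6 samples, ordered by mean level; points are samples, horizontal bars the group means and error bars the SD (n = 3). mtrm and gnu were the highest and cort and sra the lowest, and the control and overexpression points overlapped for every gene.

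**Figure D2:**
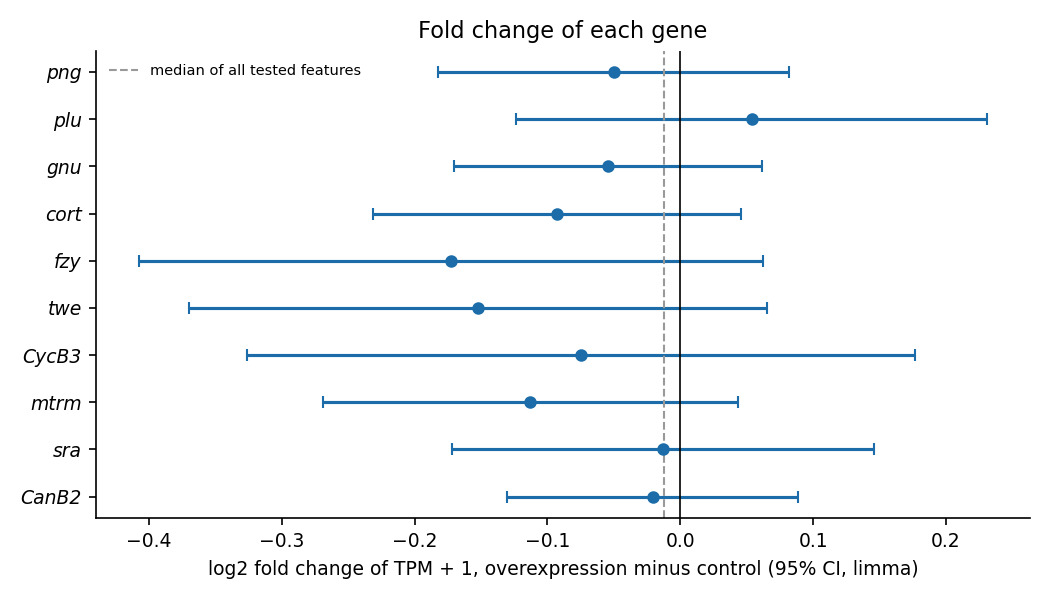
Log2 fold change of TPM + 1, overexpression minus control, for each gene with its 95% confidence interval from limma (n = 3 per group). Every interval includes 0; the dashed line marks the median of all tested features, -0.01.

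The levels spanned from 82.1 TPM for sra to 627 TPM for mtrm, taken as means over the 6 samples. In descending order they were mtrm, gnu, CycB3, CanB2, fzy, twe, plu, png, cort and sra. The transcripts mtrm and gnu stood at ranks 199 and 241 of the 7855 tested features, and sra, the lowest, at rank 2369. The ranges of mtrm and gnu did not overlap, nor did those of gnu and CycB3, of CanB2 and fzy, of plu and png, or of png and cort. CycB3 and CanB2 could not be ordered, since CycB3 was the higher of the pair in 3 of 6 samples, and the same held for twe and plu. The ranges of fzy and twe overlapped although fzy was higher in 6 of 6 samples, and cort was above sra in 5 of 6.

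The PNG kinase complex consists of the catalytic subunit encoded by png and 2 activating subunits, the ankyrin-repeat protein encoded by plu and the protein encoded by gnu, which joins the kinase at egg activation. Coordinates here and below are those of Release 6 of the fly genome, BDGP6.54 in the annotation used. The png transcript (FBgn0000826, X, 1356488 to 1357601, minus strand), from a gene with a single exon, was at 102, 99.8 and 109.7 TPM in control replicates 1, 2 and 3 and at 95.5, 101 and 104 TPM in overexpression replicates 1, 2 and 3. The ranges overlapped, with only overexpression replicate 1 below every control. The means were 104 ± 5.28 TPM in control and 100.1 ± 4.39 TPM in overexpression samples (mean ± SD, n = 3 each), a log2 fold change of -0.05 with an SE of 0.06 (adjusted p = 0.948, limma), or -0.02 without overexpression replicate 1.

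The plu transcript (FBgn0003114, 2R, 20262958 to 20263684, minus strand) was at 126, 139.7 and 116 TPM in controls and 124, 130.2 and 141 TPM with overexpression. It was the one gene of the 10 whose lowest sample was a control, replicate 3, and overexpression replicate 3 was its highest. Its log2 fold change was 0.05 with an SE of 0.08 (adjusted p = 0.954, limma), with a 95% interval of -0.12 to 0.23, or 0.10 without overexpression replicate 1.

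For gnu (FBgn0001120, 3L, 14802380 to 14803360, minus strand), the most abundant of these subunit transcripts, controls were at 519, 533 and 529 TPM and overexpression samples at 476, 524 and 525 TPM. The control values lay close together, overexpression replicate 1 was the lowest and the remaining overexpression samples were inside the control range. The log2 fold change was -0.05 with an SE of 0.05 (adjusted p = 0.948, limma), or -0.0077 without overexpression replicate 1.

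The ratio of gnu to png TPM was 5.11, 5.34 and 4.82 in controls and 4.98, 5.21 and 5.04 with overexpression, and that of plu to png was 1.23 ± 0.17 in control and 1.32 ± 0.0332 in overexpression samples (mean ± SD, n = 3 each). The gnu transcript was thus in excess of png in 6 of 6 samples, by between 4.82 and 5.34 times, and both ratios overlapped between the groups. A translational target of PNG, smg, which encodes an mRNA-binding repressor that clears maternal transcripts, was at 792 ± 41.8 TPM in control and 757 ± 62.0 TPM in overexpression samples (mean ± SD, n = 3 each), and its log2 fold change was -0.07 with an SE of 0.07 (adjusted p = 0.948, limma).

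Anaphase of meiosis needs activators that bring substrates to the anaphase-promoting complex: cort encodes an activator used in female meiosis, and fzy is the fly Cdc20 gene, used in meiosis and mitosis. The level of cort (FBgn0000351, 2L, 6674682 to 6676635, minus strand) was 88.1, 83.3 and 92.5 TPM in controls and 78.4, 82.6 and 86.3 TPM with overexpression. All 3 overexpression samples lay below control replicate 1 and 2 of them below every control, but replicate 3 was inside the control range. Its log2 fold change was -0.09 with an SE of 0.06 (adjusted p = 0.897, limma), with a 95% interval of -0.23 to 0.05, or -0.06 without overexpression replicate 1. Of the exonic bases of cort, 99 of 1655 are also exonic in cup and CG34310 on the opposite strand; the library kit was stranded, but whether strand was used in counting is not given in the sources used here.

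The fzy transcript (FBgn0001086, 2L, 16310956 to 16313097, plus strand) had the largest estimated difference of the 10 genes. Controls were at 162, 149 and 170.1 TPM and overexpression samples at 119.9, 153 and 156 TPM. Overexpression replicate 1 stood below all other samples, while replicates 2 and 3 were within the control range. The means were 160.3 ± 10.8 TPM in control and 143 ± 20.0 TPM in overexpression samples (mean ± SD, n = 3 each), a log2 fold change of -0.17 with an SE of 0.10 (adjusted p = 0.884, limma) with a 95% interval of -0.41 to 0.06. Without overexpression replicate 1 the estimate was -0.05. The ratio of fzy to cort was 1.84, 1.78 and 1.84 in controls and 1.53, 1.85 and 1.81 with overexpression, lowest in overexpression replicate 1.

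The relative gene fzr encodes the Cdh1-type activator that acts outside M phase. It was at 39.8, 42.7 and 43.5 TPM in controls and 49.3, 45.1 and 44.5 TPM with overexpression, where the lowest overexpression sample was above the highest control, but its log2 fold change of 0.14 with an SE of 0.07 (adjusted p = 0.829, limma) did not pass the test. The ratio of cort to fzr, which the fzr values enter, was 2.22, 1.95 and 2.12 in controls and 1.59, 1.83 and 1.94 with overexpression. It was the 1 ratio of 14 computed in which the groups did not overlap, and by a narrow margin. Among all tested features, taken singly, the groups did not overlap in 11.9%. Another paralog, fzr2, was listed at a mean of 0.45 TPM in controls and 0.38 TPM with overexpression and was below the filter.

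Entry into and passage through the meiotic divisions depend on Cdk1 with its cyclins. The gene twe encodes the Cdc25-type phosphatase of meiosis, which removes the inhibitory phosphates from Cdk1. The twe transcript (FBgn0002673, 2L, 16259414 to 16261877, minus strand) was at 149, 134 and 158 TPM in controls and 114.6, 143 and 139 TPM with overexpression. As for fzy, overexpression replicate 1 was the lowest of all samples and the others lay inside the control range. The log2 fold change was -0.15 with an SE of 0.09 (adjusted p = 0.89, limma), or -0.05 without overexpression replicate 1. Its counterpart stg, the Cdc25 phosphatase of mitosis, stood above it, with a ratio of stg to twe of 2.09 ± 0.0409 in control and 2.18 ± 0.0654 in overexpression samples (mean ± SD, n = 3 each). The genes twe and fzy lie near each other on 2L, and each shares under 5% of its exonic bases with a gene on the opposite strand.

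CycB3 encodes a B-type cyclin needed for anaphase in female meiosis. Its transcript (FBgn0015625, 3R, 24867934 to 24870816, minus strand) was at 266, 251 and 290.3 TPM in controls and 213, 273 and 286 TPM with overexpression. The overexpression samples held values near the control maximum and also, in replicate 1, the lowest value, giving CycB3 the widest spread of the 10 genes on the log2 scale. The log2 fold change was -0.07 with an SE of 0.11 (adjusted p = 0.954, limma), and without overexpression replicate 1 it was 0.06, of the opposite sign. CycB, another B-type cyclin, was between 9.18 and 11.6 times as abundant as CycB3 in each sample, and CycA between 3.50 and 4.74 times.

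The protein encoded by mtrm binds and inhibits the kinase Polo, which holds the oocyte in prophase until maturation. It was the most abundant transcript of the 10. Its values (FBgn0010431, 3L, 8413012 to 8414103, plus strand) were 672, 625 and 654 TPM in controls and 543, 621 and 644 TPM with overexpression. Overexpression replicate 1 was below every other sample, replicate 2 was just under the lowest control, and replicate 3 was within the control range. The means were 650.4 ± 23.8 TPM in control and 603 ± 52.7 TPM in overexpression samples (mean ± SD, n = 3 each), a log2 fold change of -0.11 with an SE of 0.07 (adjusted p = 0.887, limma) with a 95% interval of -0.27 to 0.04. Without overexpression replicate 1 the estimate was -0.04. The transcript of polo itself was at 510.2 ± 18.5 TPM in control and 492 ± 23.2 TPM in overexpression samples (mean ± SD, n = 3 each). The ratio of mtrm to polo was 1.28, 1.28 and 1.26 in controls and 1.17, 1.23 and 1.27 with overexpression, so that mtrm RNA exceeded polo RNA in 6 of 6 samples and the groups overlapped. The gene lies inside Exo70, on the same strand, with no exonic base shared.

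Calcium acts on the egg through calcineurin, made of a catalytic A subunit, a regulatory B subunit and calmodulin. The gene sra encodes a calcipressin, a regulator of calcineurin that is required for egg activation, and CanB2 encodes a B subunit. The sra transcript (FBgn0086370, 3R, 16186999 to 16197584, plus strand) was at 84.0, 76.8 and 86.7 TPM in controls and 75.6, 84.97 and 84.8 TPM with overexpression, groups that covered nearly the same range. Its log2 fold change was -0.01 with an SE of 0.07 (adjusted p = 0.995, limma), with a 95% interval of -0.17 to 0.15. Bin1, on the opposite strand, shares 301 of the 2372 exonic bases of sra, 12.7%, the largest overlap among the 10 genes.

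The CanB2 transcript (FBgn0015614, 2R, 7786010 to 7789053, plus strand) was at 266, 267 and 254 TPM in controls and 246, 262 and 267 TPM with overexpression. It had the smallest spread of the 10 genes, a pooled SD of 0.05 on the log2 scale, and its log2 fold change was -0.02 with an SE of 0.05 (adjusted p = 0.974, limma). Without overexpression replicate 1 the estimates of CanB2 and sra were 0.01 and 0.04, both of the opposite sign to those from all samples.

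The catalytic subunit genes expressed in these ovaries were Pp2B-14D, at 159 ± 7.74 TPM in control and 147 ± 2.96 TPM in overexpression samples (mean ± SD, n = 3 each), and CanA-14F, at 83.5 ± 5.76 TPM in control and 90.1 ± 3.30 TPM in overexpression samples (mean ± SD, n = 3 each), while CanA1 was at most 0.10 TPM. CanB2 TPM was about equal to the sum of these catalytic transcripts, with a ratio of 1.08 ± 0.0804 in control and 1.09 ± 0.0264 in overexpression samples (mean ± SD, n = 3 each). For sra the same ratio was 0.34 ± 0.00364 in control and 0.345 ± 0.0152 in overexpression samples (mean ± SD, n = 3 each). The sra transcript was thus below the sum of the catalytic transcripts in 6 of 6 samples, though near the level of CanA-14F alone. The other B subunit gene, CanB, was at 0.46, 0.19 and 0.43 TPM in controls and 1.31, 1.06 and 0.68 TPM with overexpression. These groups did not overlap, but CanB was under the filter. In limma with no filter on low values its adjusted p was 0.50, and in the authors' deposited table its log2 fold change was 1.55 with an FDR of 0.109. CanB and CanB2 encode similar proteins, and how reads that fit both genes were assigned is not given in the sources used here.

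The sample that departed from the rest was overexpression replicate 1. It had the lowest value of the 6 samples for 9 of the 10 genes, plu being the exception, where 39.8% of all tested features were lowest in that sample. It was below all 3 controls for the same 9, against 45.5% of tested features. The corresponding counts were 2 of 10 in overexpression replicate 2, against 19.8% of features, and 0 of 10 in replicate 3, against 19.4%. These counts were made after the values had been seen. Relative to the control mean, fzy was 25.2% lower in overexpression replicate 1, twe 21.98%, CycB3 21.0% and mtrm 16.5%, whereas CanB2 was 5.99% lower and plu 2.30%. The departure therefore had different sizes among the genes, largest in fzy and smallest in plu. Within batch 1 the overexpression sample was lower for 10 of 10 genes, with a median log2 difference of -0.16, within batch 2 for 5 of 10 (median 0.00076) and within batch 3 for 8 of 10 (median -0.03). Over all tested features the medians within batches 1, 2 and 3 were -0.07, 0.06 and -0.02, and there 63.9%, 32.9% and 57.1% of features were lower in the overexpression sample.

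**Figure D3:**
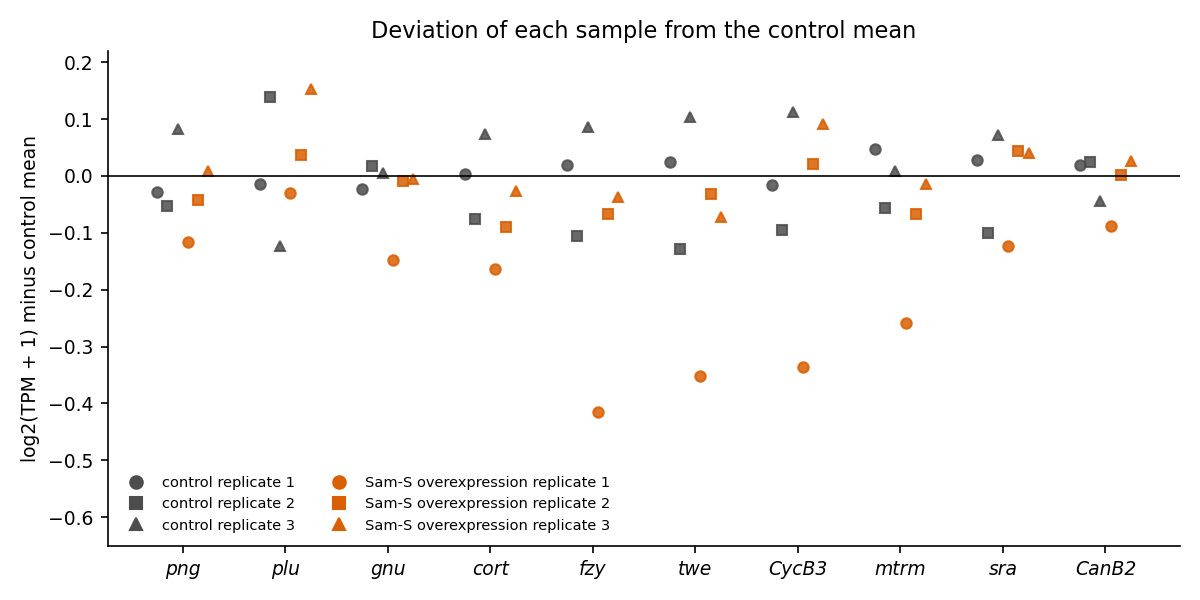
Deviation of each sample from the control mean on the log2(TPM + 1) scale, for each of the 10 genes; grey points are controls, orange points Sam-S overexpression, and the shape gives the replicate number. Overexpression replicate 1 (orange circles) is the lowest point for 9 genes, all but plu, and lies farthest down for fzy, twe and CycB3.

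Summed over the 10 genes, the level was 2433, 2359 and 2461 TPM in control replicates 1, 2 and 3 and 2086, 2374 and 2434 TPM in overexpression replicates 1, 2 and 3. The vitelline membrane genes, which follicle cells transcribe in egg chambers of middle stages, moved the other way in the low sample: their 5 genes summed to 13021, 15547 and 12350.0 TPM in controls and 18483, 12206 and 10058 TPM with overexpression. The 4 late chorion genes, markers of the oldest egg chambers, summed to 16061, 18451 and 14095 TPM in controls and 14946, 14237 and 10983 TPM with overexpression. Overexpression replicate 1 thus had the highest vitelline membrane sum of the 6 samples and a chorion sum inside the control range. In that sample 1 of the 4 chorion genes, Cp15, was below every control, against 45.5% of all tested features. Cp15 was at 9331, 10598 and 8761 TPM in controls and 8389, 8280 and 6921 TPM with overexpression. The follicle cell and muscle marker sums of overexpression replicate 1 were also the highest, at 104.8 and 191 TPM. The 7 germline markers summed to 2195, 2156 and 2218 TPM in controls and 2238, 2282 and 2215 TPM with overexpression. Their sum in overexpression replicate 1 was above all 3 controls, with 2 of the 7 below every control in that sample, against 45.5% of all tested features. The largest of the 7, osk, weighed heavily in this sum, which therefore does not show that the germline genes as a set were higher. The osk transcript was at 944, 981 and 939 TPM in controls and 1025, 1070 and 1028 TPM with overexpression (adjusted p = 0.580, limma). Of the 7 germline estimates 4 were below 0, against 56% of all tested features, and their median log2 fold change was -0.03. The part of these marker levels in the low values of the 10 genes was not tested. Each of the 4 chorion genes had a negative estimate, with a median log2 fold change of -0.28, and 0 of 4 passed an adjusted p of 0.05. The groups of Cp15 did not overlap, as in 11.9% of all tested features (adjusted p = 0.584, limma).

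**Figure D4:**
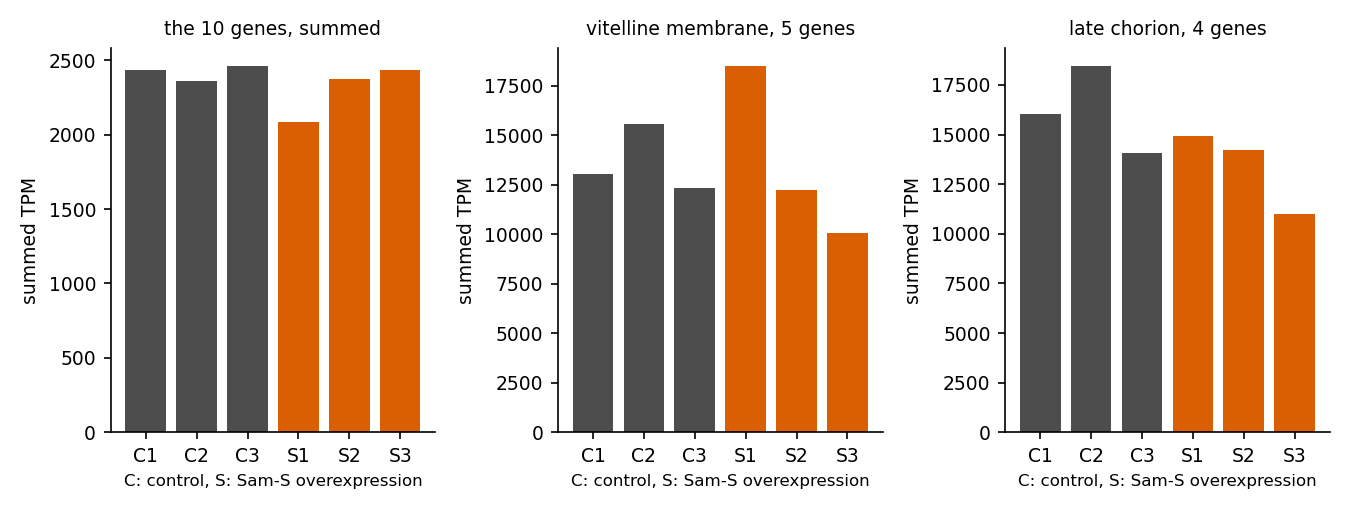
Summed TPM per sample of the 10 genes, of 5 vitelline membrane genes and of 4 late chorion genes (bars; C1 to C3 controls, S1 to S3 Sam-S overexpression replicates). S1 has the lowest bar for the 10 genes and the highest for the vitelline membrane genes.

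How far the genes varied together depended on that sample. Over the 6 samples, Pearson's r of log2(TPM + 1) was above 0 for 40 of the 45 pairs of the 10 genes, with a median of 0.78, and the highest was 0.98 for fzy and twe. The 9 pairs with plu had a median of -0.08. Without overexpression replicate 1 the median over the 45 pairs was 0.18, with 24 pairs above 0. These values describe the libraries, which share their depth, dissection and total, and carry no test.

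The features most like the mean profile of the 10 genes, among the 7845 other tested features, were Phf7, CG11474 and CG18048. Phf7 encodes a PHD finger protein and was at 64.4, 59.7 and 67.3 TPM in controls and 50.5, 62.4 and 65.5 TPM with overexpression. Pearson's r with the mean profile over the 6 samples was 0.996 for Phf7, 0.995 for CG11474 and 0.993 for CG18048. All 3 had their lowest value in overexpression replicate 1. Without it r was 0.996, 0.948 and 0.945 over 5 samples. The 3 features were picked for the highest r among 7845 over 6 samples. High values therefore come with that choice, and they carry no test.

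Of 61 further genes on 5 lists of related function, 58 passed the filter, and 0 of these changed (limma, adjusted p under 0.05), as against 0.28% of all tested features. At an unadjusted p under 0.05 there were 2 of 58, where the share among all features was 6.58%. Of the 58 estimates 44, or 75.9%, were below 0, compared with 56% of all tested features. The groups did not overlap in 9 of the 58, Pp2B-14D, fzr, APC7, aurB, orb and alphaTub67C among them, against 11.9% of all tested features. In overexpression replicate 1, 41 of the 58 were below every control, against 45.5% of all tested features. By list these were 18 of 21 M-phase genes, 7 of 8 female meiotic spindle genes and 9 of 13 anaphase-promoting complex genes. For translational control the count was 4 of 10, and for calcium and calcineurin 3 of 6.

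The M-phase list holds kinases and phosphatases that drive or oppose the divisions, and also cyclins, Cks genes, endos, Incenp, mad2, mei-S332 and grau. It gave 20 of 21 estimates below 0, against 56% of all tested features. The median log2 fold change was -0.09, or -0.03 without overexpression replicate 1. In overexpression replicate 1, 18 of these 21 genes were below every control, against 45.5% of all tested features. The most abundant were CycB, at 2724 ± 91.9 TPM in control and 2602 ± 133 TPM in overexpression samples (mean ± SD, n = 3 each), and CycA, at 1094 ± 38.3 TPM in control and 1025 ± 82.1 TPM in overexpression samples (mean ± SD, n = 3 each). The largest difference of the list was in aurB, the kinase of the chromosomal passenger complex, with 76.3, 72.6 and 80.1 TPM in controls and 59.1, 71.0 and 70.8 TPM with overexpression. The aurB groups did not overlap, and its log2 fold change was -0.19 with an SE of 0.08 (adjusted p = 0.751, limma), with an unadjusted p of 0.0465.

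The anaphase-promoting complex list, made up of subunits, activators, the inhibitor Rca1 and the ubiquitin-conjugating enzyme vih, had 9 of 13 estimates below 0 and a median of -0.04, which was 0.02 without overexpression replicate 1. Its most abundant genes were vih, at 279 ± 7.90 TPM in control and 269.7 ± 20.6 TPM in overexpression samples (mean ± SD, n = 3 each), and the subunit gene APC7, at 163 ± 1.78 TPM in control and 167 ± 1.01 TPM in overexpression samples (mean ± SD, n = 3 each). The calcium and calcineurin list had 3 of 6 estimates below 0 and a median of -0.01, or 0.03 without overexpression replicate 1. It was led by Cam, the calmodulin gene, at 1187 ± 121 TPM in control and 1135 ± 91.2 TPM in overexpression samples (mean ± SD, n = 3 each), with Pp2B-14D the next.

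Genes that control translation at egg activation had a median log2 fold change of -0.03, or 0.0065 without overexpression replicate 1, with 6 of 10 below 0. The repressor components me31B and tral were the most abundant, at 3489 ± 173 TPM in control and 3346 ± 179 TPM in overexpression samples (mean ± SD, n = 3 each) for me31B and 1942 ± 122.8 TPM in control and 1887 ± 60.3 TPM in overexpression samples (mean ± SD, n = 3 each) for tral. In the same list orb, which encodes an mRNA-binding protein that promotes translation in the oocyte, was at 235, 251 and 235 TPM in controls and 257, 261 and 269.8 TPM with overexpression. Its groups did not overlap, and its log2 fold change was 0.13 with an SE of 0.05 (adjusted p = 0.622, limma), with an unadjusted p of 0.0257. The female meiotic spindle list had a median of -0.08, or -0.04 without overexpression replicate 1, with 6 of 8 below 0. Its leading genes were alphaTub67C, the maternal alpha-tubulin, at 639.9 ± 4.46 TPM in control and 606 ± 4.79 TPM in overexpression samples (mean ± SD, n = 3 each), and Klp10A, a microtubule-depolymerizing kinesin, at 212 ± 14.7 TPM in control and 205 ± 9.25 TPM in overexpression samples (mean ± SD, n = 3 each).

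**Figure D5:**
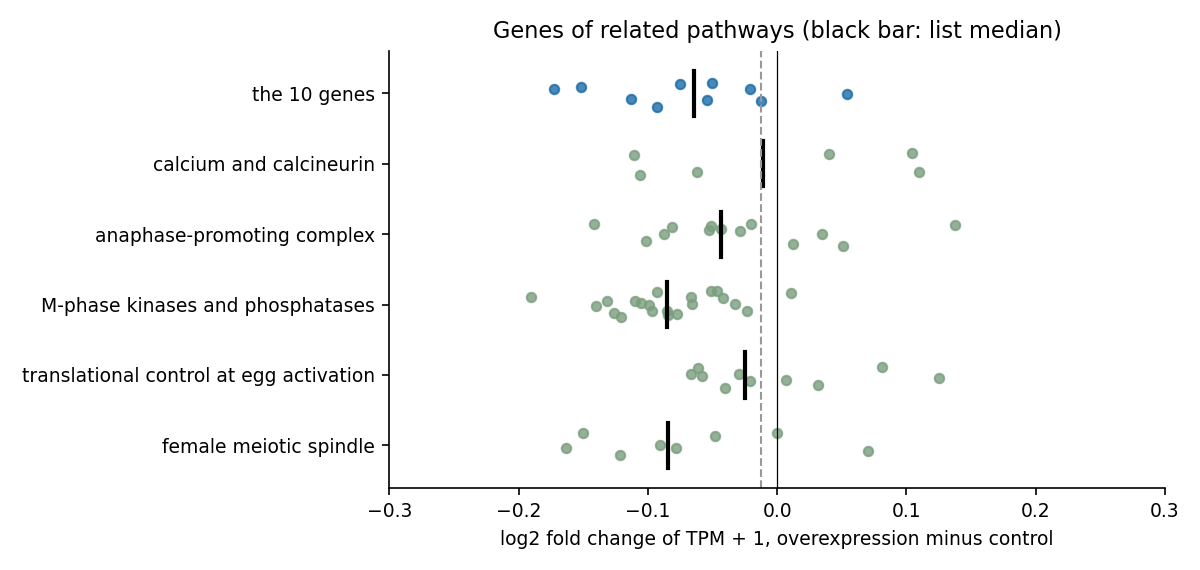
Log2 fold change of TPM + 1, overexpression minus control, of each tested gene in the 5 related lists and of the 10 genes; points are genes, black bars list medians, and the dashed line is the median of all tested features. All points lie between -0.19 and 0.14, and the medians between -0.09 and -0.01.

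In the authors' deposited table, 0 of the 10 genes had an FDR under 0.05, where 122 of 17457 features, 0.699%, did, and 0 of 10 had a p under 0.05, against 4.24%. The FDR in the authors' deposited table was 1 for all 10. There too fzy had the lowest log2 fold change of the 10, -0.16, with a p of 0.0553, and plu was highest, at 0.05. That table and the fits above use the same 6 samples.

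Exact two-sided permutation tests of the TPM of each gene, 3 samples against 3, gave p from 0.2 to 0.8 over the 10 genes, unadjusted, and this design cannot go below 0.1. Nothing in the labels says that samples of a group came from separate crosses, so the p-values measure the spread between these samples. The median pooled SD within groups was 0.10 on the log2 scale for the 10 genes and 0.07 for the 2171 tested features within their range of mean TPM.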

How the data were processed

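Ovary polyA RNA was sequenced in 6 samples; Trizol was used for extraction and a stranded TruSeq mRNA kit for the libraries, per the labels' protocols. The deposited table gives TPM per sample, computed by the authors and rounded to 2 decimals, per the file headers; columns sum to between 999999.74 and 1000000.24. STAR is named in the submitters' processing notes. The counting method, strand setting, build and annotation are not given in the sources used here. The authors' deposited comparison gives log2 fold changes and average log2 CPM values, along with each p-value and FDR, per the file headers; its tool is not given in the sources used here. Coordinates are those of the file; for all 10 genes they equal the Ensembl annotation of BDGP6.54 (Release 6), from which exon counts and overlaps came.

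Columns were matched to samples by the labels, and 0 value columns lacked a sample. Values were tested as log2(TPM + 1) with limma 3.58.1 in R 4.3.3 (lmFit, eBayes with a mean-variance trend, group as the only term, two-sided) over 7855 features with a mean of at least 1 TPM, adjusted by Benjamini-Hochberg. This scale understates changes of low genes. The fit was tested on simulated data. Python 3.11.15, pandas 2.3.3, numpy 2.4.6, scipy 1.17.1 and matplotlib 3.10.9 served the rest. Depth is unknown, so no counting interval was computed.

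The batch number in the labels equals the replicate number and pairs 1 sample of each group. Deviations of same-numbered samples from their group means had correlations of -0.06, -0.06 and 0.21 over features for numbers 1, 2 and 3. Those of differently numbered samples ran from -0.23 to 0.26, the highest for control replicate 2 with overexpression replicate 1. Same-numbered samples were thus not the most alike. The 10 genes and all lists were chosen with earlier results of these data known. Of the related genes, the text names those with an unadjusted p under 0.05 and the 2 of highest mean TPM per list. The genes smg, fzr, fzr2, stg, polo, CanA-14F, CanA1 and CanB and the 14 ratios were chosen after their values were seen. So were the marker genes named singly. The likeness rule took the 3 other features with the highest r to the mean centred profile of the 10 genes. Of the 61 related genes, 4 were matched through RefSeq synonyms. Alternatives were another pseudocount, 2 other filters, 2 scalings, a replicate block, eBayes with no trend, and the omission of single samples.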

Additional observations from a re-analysis of the deposited data

How the results depend on the processing

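Under all 13 alternatives (a pseudocount of 0.1, no filter, a mean TPM of at least 5, trimmed mean scaling, quantile normalization, the replicate block, no trend, and leaving out each of the 6 samples), 0 of the 10 genes and 0 of the related genes changed. The lowest adjusted p of any of the 10 genes in any alternative was 0.611. Estimates near 0 changed sign in 8 of 130 values for 4 genes: under quantile normalization sra was at 0.0068 and CanB2 at 0.0049, and when samples were left out sra ran from -0.063 to 0.042, plu from -0.0081 to 0.123, CycB3 from -0.158 to 0.056 and CanB2 from -0.044 to 0.013. The sign of CycB3 changed only without overexpression replicate 1, and that of plu only without control replicate 3. The cause was not tested. The number of changed features in the whole table was 22, 13 with no filter, 11 to 27 when a sample was left out (11 without control replicate 1 and 14 without control replicate 3), and 16 with the replicate block, which left 0 of the 10 genes changed and altered no other call among them. All alternatives use the same TPM values, so none bears on how those were computed. Without the depth, counting error cannot be set against the spread.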
